A study of Homo sapiens with 2 samples.

Results

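The miRNAs described here are those of the chromosome 19 placental cluster, a long run of related miRNA hairpins that is found in primates and is best known from the placenta. Members were taken by name from the array's probe list: every human probe for miR-498, miR-512, miR-515 to miR-527 or miR-1283, with any letter and either arm, and with probes shared by several of these miRNAs kept. This gave 55 of the 2632 miRNA probes on the array. They carry 66 miRNA names, since 6 probes each stand for several members. The mature sequences of the members on such a probe, where found, are the same. The rule used names alone and no measured value, but it was chosen with earlier results of these data known.

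The study profiled miRNA that U87MG delta EGFR glioblastoma cells release in exosomes, which are small vesicles shed into the medium. U87MG delta EGFR is a glioblastoma line derived from U87MG whose name refers to a shortened form of the epidermal growth factor receptor. One sample came from non-treated control cells and one from cells given boron neutron capture therapy (BNCT), in which boron taken up by cells is split by thermal neutrons into short-range particles. For BNCT the labels describe 2 hours with p-boronophenylalanine-fructose complex at 25 ppm, thermal neutron irradiation, and medium collected on day 3. They print that text for both samples, so whether the control cells were handled or timed in the same way is not stated, and compound, neutrons, handling and time cannot be told apart. All cells grew in DMEM with exosome-depleted fetal bovine serum. The titles name exosomes, whereas the extraction text speaks of RNA from cells, so the labels leave the RNA source unsettled.

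The cluster is imprinted and is transcribed from the paternal allele, mainly in trophoblast, the outer cell layer of the placenta. Trophoblast releases its miRNAs in vesicles into the maternal blood, and in brain the cluster is known for amplification in a childhood embryonal tumour. Many of its 3p arms share the seed core AAGUGC with the miR-302, miR-371 to miR-373 and miR-17 families, which repress inhibitors of the cell cycle in pluripotent and dividing cells. A seed is the stretch of bases 2 to 8 by which a miRNA pairs with its targets.

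Mature sequences were found in RefSeq (GRCh38.p14) for 53 of the 55 probes. The entries for the other two, miR-522-3p and miR-518f-3p, were not used. The mature miRNAs lie on the plus strand of chromosome 19 between positions 53666692 and 53762418, in 43 hairpins over 95.7 kb. The sequences below are written 5′ to 3′ with the seed in capitals. They are the members whose spots carry the results that follow, shown so that the 5p arms can be compared with each other and with the 3p arms.
miR-498-5p: uUUCAAGCcagggggcguuuuuc
miR-524-5p: cUACAAAGggaagcacuuucuc
miR-520d-5p: cUACAAAGggaagcccuuuc
miR-518c-5p: uCUCUGGAgggaagcacuuucug
miR-519c-5p: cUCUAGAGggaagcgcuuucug
miR-526a-5p: cUCUAGAGggaagcacuuucug
miR-518f-5p: cUCUAGAGggaagcacuuucuc
miR-520f-5p: cCUCUAAAgggaagcgcuuucu
miR-520b-5p: cCUCUACAgggaagcgcuuuc
miR-523-3p: gAACGCGCuucccuauagagggu
miR-517a-3p: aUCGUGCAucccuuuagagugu
miR-518e-3p: aAAGCGCUucccuucagagug
miR-519a-3p: aAAGUGCAuccuuuuagagugu
miR-520e-3p: aAAGUGCUuccuuuuugaggg
Apart from miR-498-5p, the 5p arms in this set share the run GGGAAGC directly after or overlapping the seed.

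How both arms sit in one hairpin is shown by MIR524, which spans chr19:53711002-53711088 (GRCh38.p14, plus strand) and is 87 bases long. Capitals mark the mature 5p and 3p arms.
MIR524 hairpin: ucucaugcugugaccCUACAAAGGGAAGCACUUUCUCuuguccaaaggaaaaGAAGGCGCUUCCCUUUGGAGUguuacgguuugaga

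Each sample was hybridised to 1 array with 1 colour (Cy5) and 1 spot per probe, so no test was possible and sizes alone are given. Each array was a slide of its own. Slide and group therefore cannot be told apart. Values are spot medians in scanner units, not yet corrected for background. A probe was called detected where its spot exceeded the mean of the array's blank spots plus 2 SD. Without their top and bottom 5%, the blanks had a mean of 258.1 units and an SD of 6.93 in control, and 254.9 and 6.27 in BNCT, which set the limits at 272.0 and 267.5. The limit was itself passed by 17 of 312 blanks in control and by 16 in BNCT. The 112 spots that carry no probe were brighter than the blanks, at a mean of 301.1 units in control and 288.5 in BNCT, trimmed likewise. Across all miRNA probes the brightest spot read 1183.7 units in control and 1877.1 in BNCT. Of 11 miRNAs listed as abundant in glial and glioblastoma cells, 2 were detected on each array. Over all miRNA probes the shares detected were 28.6% in control and 36.2% in BNCT. The brightest of the 11 was miR-24-3p, far over the limits at 620.0 units in control and 915.6 in BNCT. The second call differed between the arrays, with miR-23a-3p in control (280.5 units) and miR-29a-3p in BNCT (276.5 units). The glioblastoma miRNA miR-21-5p stayed below the limits at 260.2 units in control and 255.7 in BNCT.

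Most of the cluster was at the level of the blanks. On the control array 13 of the 55 probes were detected (23.6%, 95% Wilson interval 14.4 to 36.3), where 28.6% of all miRNA probes were. On the BNCT array 17 were detected (30.9%, 20.3 to 44.0), where 36.2% of all probes were. The intervals cover the counting of probes only, and members share sequence and are not independent. The share of members detected was thus near the background of the array, and slightly under it, on both.

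The calls of the members overlapped in part between the arrays. Of the members, 6 passed the limit on both arrays, 10.9% of the cluster, against 24% of all probes. A further 7 of the 55 passed in control alone, 12.7% against 4.64% of all probes, and 11 of the 55 in BNCT alone, where 12.3% of all probes did. Put as shares of each list, 46.2% of the members detected in control were also detected in BNCT, against 83.8% over all probes, and 35.3% of those detected in BNCT were also detected in control, against 66.1%. Among the 1075 other probes within the members' ranges of G and of G plus C, these shares were 46.5% and 37.4%, close to those of the members. Those probes were detected less often, in 9.21% of cases in control and 11.4% in BNCT, against 23.6% and 30.9% of members. With rates of detection so unlike, like shares do not mean that the calls agreed equally well between the arrays. The remaining 31 members were detected on neither array. Most detected members lay close to the limit: 12 of the 13 in control and 11 of the 17 in BNCT were between 2 and 5 SD over the blanks. Over all probes 396 of the 752 detected in control and 429 of the 953 in BNCT lay there, and among the probes of like composition 79 of 99 and 98 of 123. Within that range, 5 of the 12 control members were also detected in BNCT, against 70.2% over all probes and 36.7% at like composition, and 3 of the 11 BNCT members were also detected in control, against 33.6% and 21.4%.

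**Figure D1:**
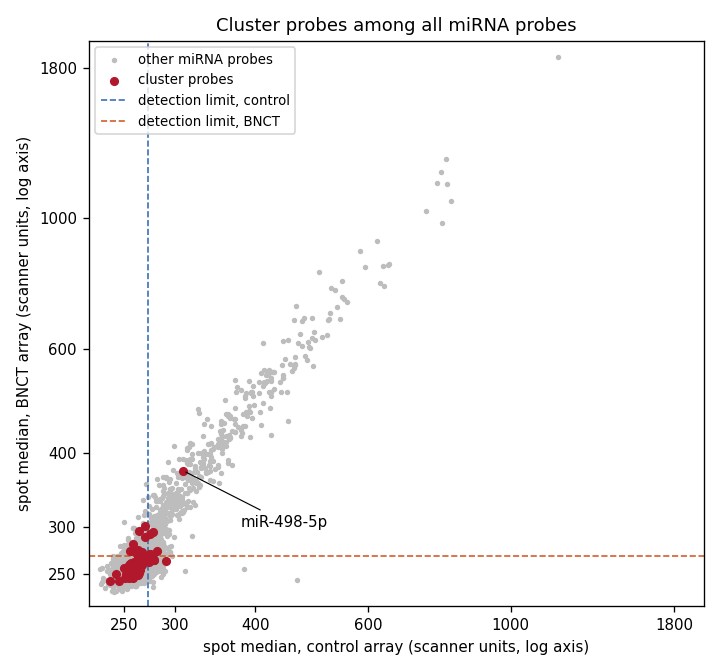
Spot median on the control array (x axis) against the BNCT array (y axis), both in scanner units on log axes, for every miRNA probe, with the 55 cluster probes in red and the detection limits of 272.0 and 267.5 units dashed. The cluster sits in the dim corner around the limits, and miR-498-5p, at 308.6 and 373.5 units, is the one member that stands out along the diagonal.

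The spread of the members was narrow. Their spot medians ran from 238.0 to 308.6 units in control, with a median of 262.9, and from 242.8 to 373.5 in BNCT, with a median of 261.5. The medians over all probes were 262.5 and 261.0 units. Members under the mean of the blanks numbered 16 in control (29.1%, against 36.8% of all probes) and 17 in BNCT (30.9%, against 30.7%). Between the arrays the members' background-corrected and normalized log2 levels had a Pearson correlation of 0.65 (n = 55 probes). It was 0.35 without miR-498-5p (n = 54), while over all probes it was 0.96. Spearman's rank correlation of the spot medians was 0.65, and 0.63 without miR-498-5p, beside 0.71 over all probes, so by rank the gap was small. These correlations are across probes of the same pair of arrays and are given as a description.

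**Figure D2:**
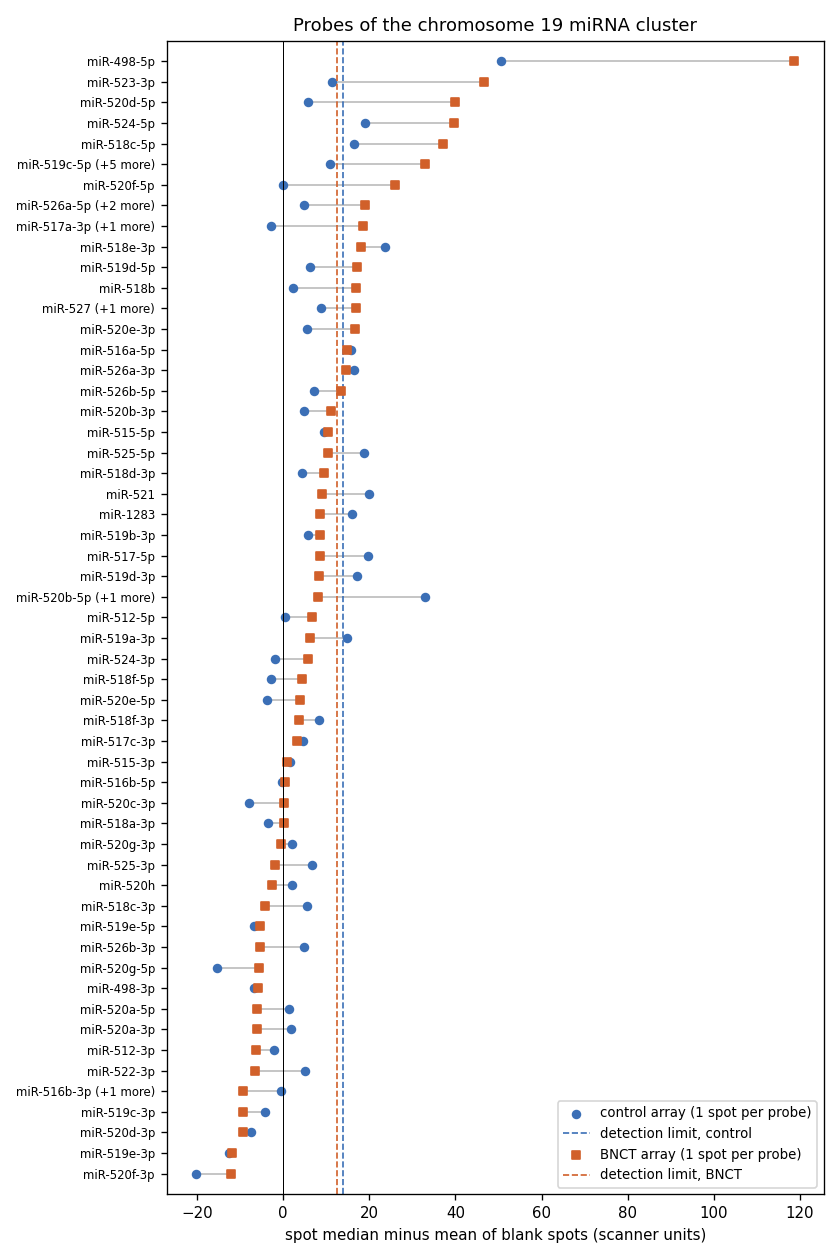
Spot median minus the mean of the blank spots, in scanner units, for each of the 55 cluster probes (1 spot per array), with control as blue circles, BNCT as orange squares and the detection limits as dashed lines. miR-498-5p reaches 50.5 units in control and 118.6 in BNCT, and most other members lie within 20 units of the blanks on both arrays.

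Of the members detected on both arrays, miR-498-5p stood furthest above the limits. miR-498 lies near the start of the cluster and is known for repressing TERT, the catalytic subunit of telomerase. Its 5p probe (chr19:53674230-53674252) read 308.6 units in control and 373.5 in BNCT. It was clear of the limit on both arrays, and it alone of the cluster passed 5 SD over the blanks on both. The scanner's own background column read 288.1 units at this spot in control and 329.6 in BNCT, the highest readings among the members. After normalization the difference, BNCT minus control, was 0.21 on the log2 scale with a spot error of 0.15. The spot error combines the spread of the blank spots with that of the spike control spots and covers neither cultures nor slides. Its sign was positive in each of the 10 processing settings computed, from 0.08 without background correction to 1.08 with scaling to the spike spots. The other arm of the hairpin, miR-498-3p, read 251.4 units in control and 249.0 in BNCT, at the level of the blanks.

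The other members detected on both arrays were 5p arms that read higher in BNCT and 3 probes that did not. miR-524-5p, which is known for repressing the Notch pathway genes Jagged-1 and Hes-1 in glioma, read 277.2 units in control and 294.5 in BNCT (difference 0.18, spot error 0.19). miR-518c-5p read 274.7 and 292.1 units (difference 0.21, spot error 0.20). Both stood clear of the limit in BNCT and near it in control, and neither sign was stable: miR-518c-5p turned to -0.12 and -0.16 with median and 75th percentile scaling, and miR-524-5p to -0.13 and -0.16, and to -0.37 with the scanner's background column. miR-516a-5p read 274.0 units in control and 269.6 in BNCT (difference -0.09, spot error 0.22), and miR-526a-3p 274.6 and 269.6 (difference -0.11, spot error 0.21). Both were within 3 units of the limit on both arrays. miR-518e-3p read 281.7 and 272.9 units (difference -0.27, spot error 0.20). Each of these last 3 was lower in BNCT in 8 of the 10 settings. With scaling to the spike spots all 3 were higher in BNCT, at 0.29 for miR-516a-5p, 0.28 for miR-526a-3p and 0.22 for miR-518e-3p. The scanner's background column turned miR-526a-3p to 0.22 and miR-518e-3p to 0.43, and without normalization miR-516a-5p was 0.01.

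Over these 6 members the median difference was 0.04, beside -0.02 over the 630 probes detected on both arrays. None of the 6 was 2-fold higher or lower in BNCT, where 0% of those 630 probes were in either direction. The offset of 50 units added in the background correction shrinks differences of dim spots, so the count of 0 says little about changes in these miRNAs. The median moved with the scaling, from -0.37 with the 75th percentile to 0.50 with the spike spots. Over all 630 probes it was -0.10 and 0.77 with these scalings, -0.06 with median scaling and 0.49 without normalization. The members' median minus that of the 630 probes was thus 0.06 as normalized here, but -0.27 with each of these 4 treatments and -0.24 in the authors' values. The 4 treatments differ only by a constant per array, so their shared -0.27 is the same by construction and counts as 1 value. With the spike spots miR-498-5p was 2-fold higher in BNCT, where 17.9% of the 630 probes detected on both arrays were. In the authors' values 0 of the 6 were 2-fold higher or lower, where 11.3% of those 630 probes were higher and 2.22% lower.

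**Figure D3:**
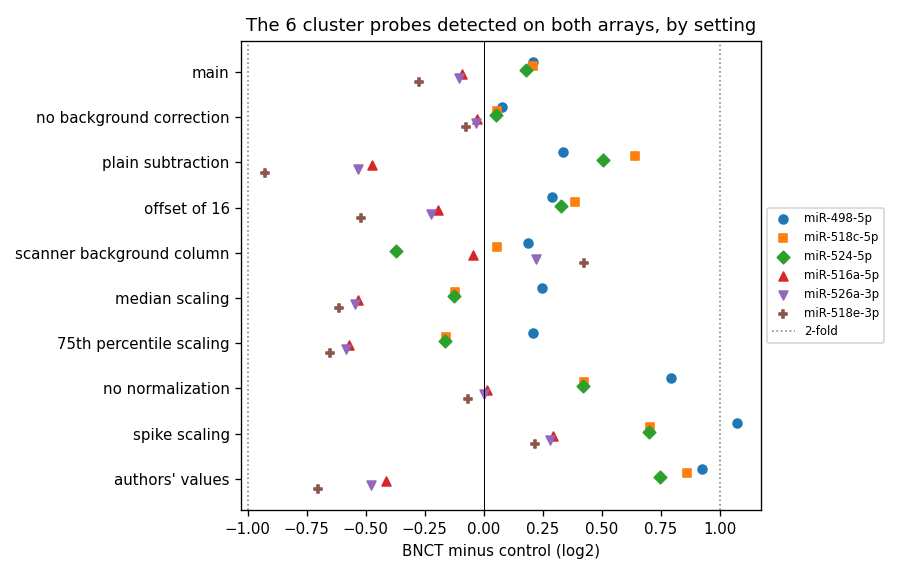
BNCT minus control difference on the log2 scale (x axis) for the 6 cluster probes detected on both arrays, under the 10 processing settings (y axis), with dotted lines at 2-fold. miR-498-5p stays to the right of 0 throughout, from 0.08 to 1.08, whereas the other 5 change side with the setting.

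Among the 11 members detected on the BNCT array alone, miR-523-3p was the furthest above the limit. It read 269.5 units in control, just under the limit, and 301.5 in BNCT. Its normalized level in BNCT had a lower bound of 1.29-fold over control. Such a bound replaces the unmeasured level on the dim array with the lowest level that counted as detected there, or with the probe's own level if that was higher. It takes each spot at its reading and leaves out the spot error, which was 0.20 on the log2 scale for miR-523-3p. On the BNCT array the scanner's own background column read 300.9 units at this spot, nearly the spot itself.

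Both arms with the seed UACAAAG were high in BNCT: miR-520d-5p, the seed partner of miR-524-5p, read 263.9 units in control and 294.8 in BNCT (bound 1.23-fold, spot error 0.21). At the spot of miR-520d-5p the scanner's background column read 200.8 units in control and 272.9 in BNCT. The probe shared by miR-519c-5p, miR-523-5p, miR-518e-5p, miR-522-5p, miR-519a-5p and miR-519b-5p read 269.0 and 287.9 units (bound 1.16-fold, spot error 0.21). Which of the 6 miRNAs this probe captured cannot be told from the spot. miR-520f-5p read 258.2 units in control, at the mean of the blanks, and 280.8 in BNCT (bound 1.09-fold, spot error 0.22). Like miR-523-3p, these 3 probes were under the limit in control and more than 10 units over it in BNCT.

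The remaining BNCT-only members were within 7 units of the limit. The probe shared by miR-526a-5p, miR-520c-5p and miR-518d-5p read 263.1 units in control and 273.9 in BNCT (bound 1.01-fold). The probe of miR-517a-3p and miR-517b-3p, placental miRNAs known for vesicle transfer that makes recipient cells resist virus, read 255.3 and 273.4, with a bound barely above 1. For the other 5 no bound above 1 could be given. They were miR-519d-5p (264.3 units in control and 272.0 in BNCT), miR-518b (260.3 and 271.9), the probe of miR-527 and miR-518a-5p (266.9 and 271.7), miR-520e-3p (263.6 and 271.5) and miR-526b-5p (265.3 and 268.3). Of these, miR-519d-5p had a scanner background reading above its own spot in BNCT.

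On the control array alone the probe of miR-520b-5p and miR-519a-2-5p was the furthest above the limit, at 291.0 units in control and 262.9 in BNCT. Its normalized level in control had a lower bound of 1.54-fold over BNCT, the largest bound in the cluster. It was the one member whose normalized difference reached 0.5 in size, at -0.69 (spot error 0.20), although it was under the limit in BNCT. The other control-only members were closer to the limit. miR-521, reported to alter the radiation response of prostate cancer cells, read 278.0 units in control and 263.8 in BNCT (bound 1.16-fold). miR-517-5p read 277.8 and 263.4 units (bound 1.16-fold), and miR-525-5p 276.8 and 265.3 (bound 1.14-fold). Each lay 4 to 6 units over the limit in control and was under it in BNCT.

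miR-519d-3p, which carries the seed AAAGUGC of miR-17-5p, read 275.4 units in control and 263.1 in BNCT (bound 1.11-fold). miR-1283 read 274.1 and 263.5 (bound 1.09-fold). miR-519a-3p, of the miR-519 group known for repressing the RNA-binding protein HuR, read 272.9 and 261.1 (bound 1.07-fold). These 3 passed the limit in control by under 4 units. No member detected on 1 array alone had a bound of 2-fold or more. That all 7 control-only bounds lay above 1 follows from the procedure, since the arrays were given equal distributions of levels and the BNCT array, with more probes past its limit, had the lower smallest detected level.

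The 31 members detected on neither array ranged up to the limit but not over it. The 3 highest on each array, which share miR-515-5p, were miR-515-5p (267.7 units in control and 265.4 in BNCT), miR-518f-3p (266.5 and 258.7), miR-525-3p (264.8 and 253.0), miR-520b-3p (262.9 and 265.9) and miR-518d-3p (262.6 and 264.4). They include miR-512-3p and miR-516b-5p, which are abundant in trophoblast vesicles. Those read 256.1 and 257.8 units in control and 248.7 and 255.3 in BNCT, near or under the means of the blanks.

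The arms differed in how often they were detected. Of 22 5p members, 7 were detected in control (31.8%) and 11 of the 22 in BNCT. Of 29 3p members, 4 were detected in control (13.8%) and 5 in BNCT (17.2%). Over all probes the same order held, with 34.6% of 5p and 21.4% of 3p names detected in control, and 42.4% and 28.4% in BNCT. Background-subtracted brightness was higher in BNCT for 17 of the 22 5p members and for 12 of the 29 3p members (77.3% and 41.4%, against 72.3% and 59.3% of all 5p and 3p probes), which makes 30 of 55 in all with 1 of the 4 probes that name no arm. Over all probes 67.5% were higher. Of 29 distinct pairs of a 5p and a 3p probe from 1 hairpin, 1 had both arms detected in control and 3 in BNCT. They were MIR519A2 in control and MIR518E, MIR523 and MIR526A1 in BNCT. Each rests on a 5p probe shared by several miRNAs, and MIR518E and MIR523 rest on the same 5p spot. Among the 835 pairs of arms of other miRNAs, matched by name, 92 had both detected in control and 140 in BNCT.

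Among the 5p members, detection in BNCT went with the run GGGAAGC, a feature picked after the values were seen and therefore given without a test. It was searched as these 7 letters on the mature strand only, and its overlap with the seed was allowed. It is found in 11 member probes with 20 miRNA names, all 5p, and in 0.511% of the 2349 array probes with a sequence. Of the 11, 3 were detected in control and 9 in BNCT, with 2 on both arrays, while of the other 11 5p members 4 were detected in control and 2 in BNCT. Over all 5p probes 34.6% were detected in control and 42.4% in BNCT. With the higher of the limits applied to both arrays, 6 of the 11 members with the run were detected in BNCT, and at 5 SD 4 were. Background-subtracted brightness was higher in BNCT for 10 of the 11 members with the run, against 72.3% of all 5p probes. The changes ran from -24.8 to 34.1 units with a median of 14.1, and the exception was the probe of miR-520b-5p. Outside the cluster 1 probe holds GGGAAGC, and it was detected on both arrays. Of the 11 probes outside the cluster with the shorter run GGAAGC, 9 were detected in control and 10 in BNCT. miR-498-5p does not hold GGGAAGC. It is the one member with GGGGG, a run that 72 array probes hold (3.07% of those with a sequence) and of which 94.4% were detected in control and 97.2% in BNCT.

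By seed, the members fell into 33 groups, of which 12 were shared by several probes. The seed UCUAGAG is common to the shared probes of miR-519c-5p and miR-526a-5p and to miR-518f-5p, with 0 of 3 detected in control and 2 in BNCT. miR-518f-5p was the one under the limit, at 255.4 units in control and 259.2 in BNCT. It differs from miR-526a-5p by C22G, counted from the 5′ end with the base of miR-518f-5p first. Of the 15 members with AAGUGC within bases 1 to 9, the core shared with the miR-302 and miR-17 families, 2 were detected in control (miR-519a-3p and miR-519d-3p) and 1 in BNCT (miR-520e-3p), none on both. Their median was 260.2 units in control and 252.2 in BNCT. The 6 members with AAGCGC at the same place, a core 1 base away, had 2 detected in control and 3 in BNCT, with miR-526a-3p and miR-518e-3p on both and miR-518b in BNCT.

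The families outside the cluster that share this core were as dim. Of 13 listed relatives, from miR-302a-3p to miR-106b-5p, 0 were detected on either array, at 238.3 to 265.6 units in control and 242.0 to 257.8 in BNCT. The list left out the miR-371 arms. Of all 16 probes outside the cluster with AAGUGC within bases 1 to 9, 0 were detected on either array, with readings up to 261.6 units in BNCT. How the seeds match is shown by a member and a relative for each of 2 seeds.
miR-520b-3p: aAAGUGCUuccuuuuagaggg
miR-302a-3p: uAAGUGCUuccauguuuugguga
miR-519d-3p: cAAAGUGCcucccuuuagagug
miR-17-5p: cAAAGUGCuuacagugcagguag
miR-302a-3p read 265.3 units in control and 253.3 in BNCT, and miR-17-5p 251.6 and 250.6, all under the limits.

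Members with almost the same sequence did not always share a call, though most of them lay near the limits. Among 16 pairs of probes that differ by 1 or 2 substitutions or in which one sequence is contained in the other, 7 pairs had the same call on both arrays and 9 did not. The spots of a pair differed by a median of 9.47 units in control and 12.3 in BNCT, where the spread of the blanks alone gives an SD of 9.81 and 8.87 for the difference of 2 spots. These are unlike measures, since a median absolute difference runs below the SD of the same noise. In BNCT the median gap of the pairs was above even the SD from the blanks, so the gaps there ran wider than the trimmed blanks give. In control it was slightly below that SD, which does not mean that the gaps were no wider than blank noise. The probe of miR-517a-3p and miR-517b-3p was detected in BNCT, while miR-517c-3p, which differs by C12U (the base of miR-517a-3p first, counted from the 5′ end), read 262.8 units in control and 258.1 in BNCT. miR-520d-5p and the probe of miR-527 and miR-518a-5p, which differ by A3G inside the seed, with the base of miR-520d-5p first, were both detected in BNCT alone. miR-520b-3p and miR-520e-3p differ by A16U, with the base of miR-520b-3p first, and miR-520e-3p alone was detected, in BNCT. Binding of a miRNA to the probe of its near-identical relative was not tested.

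Along the chromosome the detected members were not gathered in 1 stretch. With probes of repeated miRNAs counted once in each segment where they occur, the first segment of 31.9 kb held 23 probes with 3 detected in control and 6 in BNCT. The middle segment held 24, with 8 and 10 detected. The last held 15, with 6 and 4 detected. miR-1323, whose hairpin lies inside the cluster but outside the naming rule, was detected on both arrays at 280.5 units in control and 291.9 in BNCT (difference 0.04, spot error 0.19). Downstream of the cluster lie miR-371 to miR-373, of which miR-371a-5p (360.1 and 428.1 units), miR-371b-5p (338.4 and 382.5) and miR-373-5p (287.3 and 301.5) were detected on both arrays, all of them 5p arms. The 5 other listed arms of that neighbour cluster were detected on neither.

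**Figure D4:**
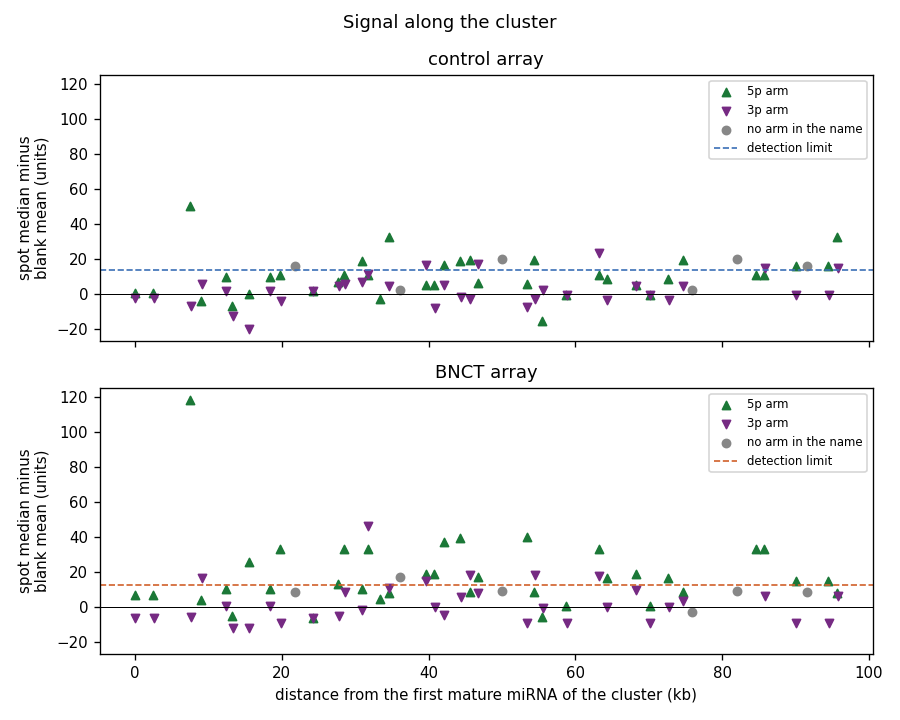
Spot median minus the mean of the blank spots (y axis, scanner units) against distance from the first mature miRNA of the cluster (x axis, kb), with the control array above and the BNCT array below, arms as separate symbols and the detection limit dashed. A miRNA that occurs in several hairpins, or a shared probe, is drawn at each of its places, and points over the limit are found along the whole 95.7 kb, with miR-498-5p alone far above it.

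Base composition and place on the array moved with detection, and their part in the members' signal was not tested. Members ranged from 31.8% to 59.1% G and C, with a median of 47.6%, where the median of all probes was 52.2%, and none had more than 33.3% G. Over the array, the 693 probes with more than 35% G were detected in 62.3% of cases in control and 76.6% in BNCT. The 1075 other probes within the members' ranges of G and of G plus C were detected in 9.21% of cases in control and 11.4% in BNCT, below the members' 23.6% and 30.9%. Of the 10 members with 50% to 55% G and C, 4 were detected in control and 7 in BNCT, against 22.9% and 34.2% of all probes of that composition. The 6 members with 55% to 60% went the other way, with 1 detected on each array, against 35.5% and 51.3% of all such probes. As to place, 42 of the 55 members lie in the first row of a block of spots. All probes in those rows were detected in 14.1% of cases in control and 20.1% in BNCT, and the 42 members there in 21.4% and 26.2%.

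**Figure D5:**
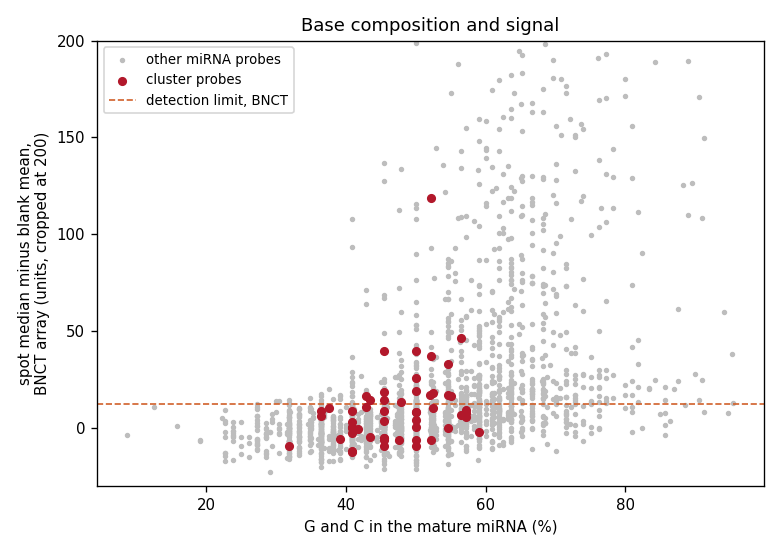
Share of G and C in the mature miRNA (x axis, percent) against spot median minus the mean of the blank spots on the BNCT array (y axis, scanner units, cropped at the top) for all probes with a sequence, with cluster probes in red and the detection limit dashed. The cluster lies between 31.8% and 59.1%, left of the range where most bright probes are found.

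The number of members called depended on the limit. At 5 SD over the blanks 1 member was detected in control (miR-498-5p), against 13.5% of all probes, and 6 in BNCT, against 19.9%. Those 6 were miR-498-5p, miR-523-3p, miR-520d-5p, miR-524-5p, miR-518c-5p and the shared probe of miR-519c-5p. With a limit from the spots without a probe, 317.6 units in control and 308.3 in BNCT, 0 members were detected in control and miR-498-5p alone in BNCT, against 8.94% and 15.3% of all probes. With the higher of the limits on both arrays, 13 members were detected in control and 10 in BNCT, against 28.6% and 29.6% of all probes. Whether the spots without a probe or the blanks are nearer to the true background of a probe spot was not tested.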

How the data were processed

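Exosomal RNA of 1 control and 1 BNCT sample was hybridised to Toray 3D-Gene human miRNA arrays. The deposited scanner files give, per the file headers, a median intensity at 635 nm for each spot, joined by fitted lines over 3 gains of the scanner. The authors' deposited value table holds intensities on a linear scale. Its values are spot medians less a constant (258.1 in control, 254.9 in BNCT) and over a factor (1.25 and 1.54) that sets the median to 25, over 761 and 957 values. The r2 of the line between gains 1 and 2 was 0.910 in control and 0.998 in BNCT.

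Spots were read in R 4.3.3 and background-corrected with limma 3.58.1 (nec, normexp fitted on the 312 blank spots, offset 50), put on the log2 scale and quantile-normalized over the 2632 miRNA probes. The spots of 2 probes that carry a failure flag on the control array, none of them members, were left out. The detection limit is the mean + 2 SD of the blanks without the top and bottom 5%. The spot error combines that SD with the CV of the spike control spots, 4.86% in control and 8.03% in BNCT. Differences are BNCT minus control. Shares have 95% Wilson intervals. The procedure was tested on simulated arrays, in which only probes brighter in control than any member were changed. That test therefore did not cover changes in spots as dim as the members.

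Every member detected on either array is named, with the highest of those detected on neither and those a result is about. The members and lists were chosen with earlier results of these data known. Besides glial miRNAs, 7 blood and serum miRNAs (0 detected in control, 3 in BNCT) and 4 neuronal ones (1 and 2) were listed. Alternatives covered background correction, offset, scaling, the authors' values, the detection limit, the detection filter and shared probes. With 1 array per group the number of arrays limits the precision, and no p-value is given.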

Additional observations from a re-analysis of the deposited data

How the results depend on the processing

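The number of members detected depended on the limit. In control it fell from 13 to 1 at 5 SD and to 0 with the limit from spots without a probe, and in BNCT from 17 to 6 at 5 SD, 1 with spots without a probe and 10 with a common limit. It was 12 and 13 with probes of 1 miRNA only, and 13 and 17 as listed in the authors' values. The median difference of the 6 members detected on both arrays, 0.04, became -0.33 with median scaling, -0.37 with 75th percentile scaling and 0.50 with spike scaling. It was -0.07 with plain subtraction, 0.17 in the authors' values, and between 0.01 and 0.22 under the other alternatives run on these 6. Without the detection filter the median was -0.01, over all 55 members. At 5 SD the value was 0.21, for miR-498-5p alone. The count of members 2-fold higher was 1 with spike scaling and 0 under the other alternatives. The 1 was miR-498-5p, where 17.9% of the 630 probes detected on both arrays were 2-fold higher. The count of members 2-fold lower was 0 throughout. Of 54 values of single members under an alternative, 19 lay within the spot error of the value reported and 35 beyond it. Scaling moves these values by its construction, and other causes were not tested.

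No paired analysis was possible because each group has 1 array. Each value is 1 spot, the detected members apart from miR-498-5p lie within 47 units of the blanks, and repeat arrays would be needed to tell a difference in these miRNAs from a difference between slides.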
